A study of Oryza sativa with 36 samples.

Results

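D-type cyclins of rice (Oryza sativa) were followed in the embryo and the endosperm of seeds that were taking up water. Members were the probe sets that the array annotation gives for 9 listed D-type cyclin genes, and 7 of these genes had a probe set, 8 probe sets in all, of 57194 rice probe sets and 17905 named or numbered genes. CYCD2-2 (LOC4343936), CYCD3-1 (LOC4340499), CYCD4-1 (LOC4347313), CYCD4-2 (LOC4345844), CYCD5-3 (LOC4331985) and CYCD6-1 (LOC4343569) had 1 probe set each, and CYCD5-2 (LOC4352668) had 2. The symbols CYCD1-1 and CYCD2-1 matched no probe set here and were dropped.

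A D-type cyclin binds a cyclin-dependent kinase (CDK) of the A type and gives it its activity in the G1 phase of the cell cycle. The kinase then phosphorylates the retinoblastoma-related protein (RBR), which frees E2F transcription factors to switch on the genes of DNA synthesis, while CDK inhibitors of the KRP and SMR families hold the kinase back. In plants D-type cyclins respond to sugars and hormones, and in Arabidopsis they are known to act in the root tip of the germinating seed. The mature cereal endosperm consists of dead starchy cells and a living aleurone layer that no longer divides.

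The study compared 2 organs over a time course. Embryos were sampled at 0, 4, 8, 12, 16 and 24 h of imbibition and endosperms at the same 6 times, with 3 Affymetrix rice arrays in each of the 12 groups and 36 arrays in all. The 0 h samples were dry seeds without treatment, and all later ones were imbibed in sterile distilled water in darkness with constant air bubbling. The cultivar was Nipponbare where the labels name one, and the growth notes of the embryo samples speak of the embryonic axis. The labels number the embryo replicates 1, 4 and 5, and those of endosperm 1, 2 and 3. They do not state that replicates came from separate cultures, so p-values reflect only the spread among these arrays, and that spread may be technical. Replicates 4 and 5 of the dry embryo shared a harvest day, as did replicates 2 and 3 of the 8 h endosperm. In every other group the 3 arrays came from different harvest days, and some days served several groups.

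All levels are deposited log2 GCRMA signals, in which a step of 1 is a doubling. Array medians were 2.8 to 2.93 for embryo arrays and 2.72 to 2.81 for endosperm arrays. The 75th percentiles ran from 5.21 to 5.77 for embryo and from 4.12 to 4.53 for endosperm. Values at or below the median of their own array are called the floor here, because GCRMA compresses weak signals and a change that starts there may be understated. The distributions differ by tissue, and the sources used here do not state whether the tissues were normalised together. Every embryo minus endosperm difference depends on that scale. The 75th percentiles also spread within each tissue, so changes with time depend on the scale too. With 75th percentile centring the median embryo change at 24 h over all probe sets was -0.43, against -0.05 as deposited. A probe set was called when the Benjamini-Hochberg adjusted p of the limma fit, over all rice probe sets, was below 0.05 and the absolute log2 difference was at least 1. In whole tissues, fewer cells that hold a transcript and less transcript per cell cannot be told apart.

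The tissue labels were checked against markers. The summed signal of 11 endosperm markers, mostly storage protein genes, was 12.63 to 12.81 (log2) in embryo and 16.48 to 16.65 in endosperm at 0 h, and 8.46 to 9.51 in embryo and 16.44 to 16.64 in endosperm at 24 h. Of these 11 genes, 10 were called lower in embryo than in endosperm at 24 h, and GLUB4, a glutelin, was at the floor in every group. Of the 11, 9 were called lower in embryo at 24 h than at 0 h, with a median change of -3.86, so this signal moved with time in embryo and its part in the embryo results was not tested. Of 7 aleurone and scutellum secretion genes, 3 were called higher in endosperm at 24 h than at 0 h, and AMY2A was at the floor in every endosperm group. Their summed signal in endosperm was 14.61 to 14.73 at 24 h and 13.74 to 13.81 at 0 h. In embryo it was 13.50 to 14.24 at 24 h and 14.07 to 14.15 at 0 h. This list was thus higher in embryo at 0 h and in endosperm at 24 h, and does not mark 1 tissue. Of 5 embryo markers, 3 were called higher in embryo at 24 h, namely the meristem homeobox genes OSH1 (4.36 ± 0.25), OSH6 (4.33 ± 0.27) and OSH71 (4.57 ± 0.22; log2 difference ± SE). EMP1, a late embryogenesis protein gene, differed by -0.64 ± 0.26 and OSH43 by -0.29 ± 0.10, neither of them called. Replicates correlated at Pearson's r of 0.989 to 0.998 over 36 pairs, across probe sets. The 3' minus 5' signal of control transcripts averaged 1.51 to 1.67 in the embryo groups. In endosperm it was 3.34 ± 0.14 at 24 h and 2.29 ± 0.26 at 0 h (SD, n = 3), and ribosomal RNA controls were lower at 24 h than at 0 h in both tissues (10.16 and 14.06 in embryo, 8.31 and 12.02 in endosperm). The part of these controls in the results was not tested.

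In embryo, 6 of the 8 probe sets were called higher at 24 h than in the dry seed and none was called lower, against 12.0% of all probe sets called higher and 10.1% called lower. These 6 stand for 5 of the 7 genes: CYCD3-1, CYCD4-1, CYCD4-2, CYCD5-2 and CYCD6-1. CYCD2-2 and CYCD5-3 were not called. In endosperm, 2 of the 8 were called higher at 24 h, CYCD3-1 and CYCD4-1, and none lower, against 7.33% and 4.57% of all probe sets. The median change of the 8 was 1.87 in embryo and 0.16 in endosperm, where the median over all probe sets was -0.05 and -0.03 on the log2 scale. With 75th percentile centring the split of all probe sets at 24 h was 5418 higher and 7960 lower in embryo and 2941 and 4268 in endosperm, against 6875 and 5778 and 4194 and 2612 as deposited.

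**Figure D1:**
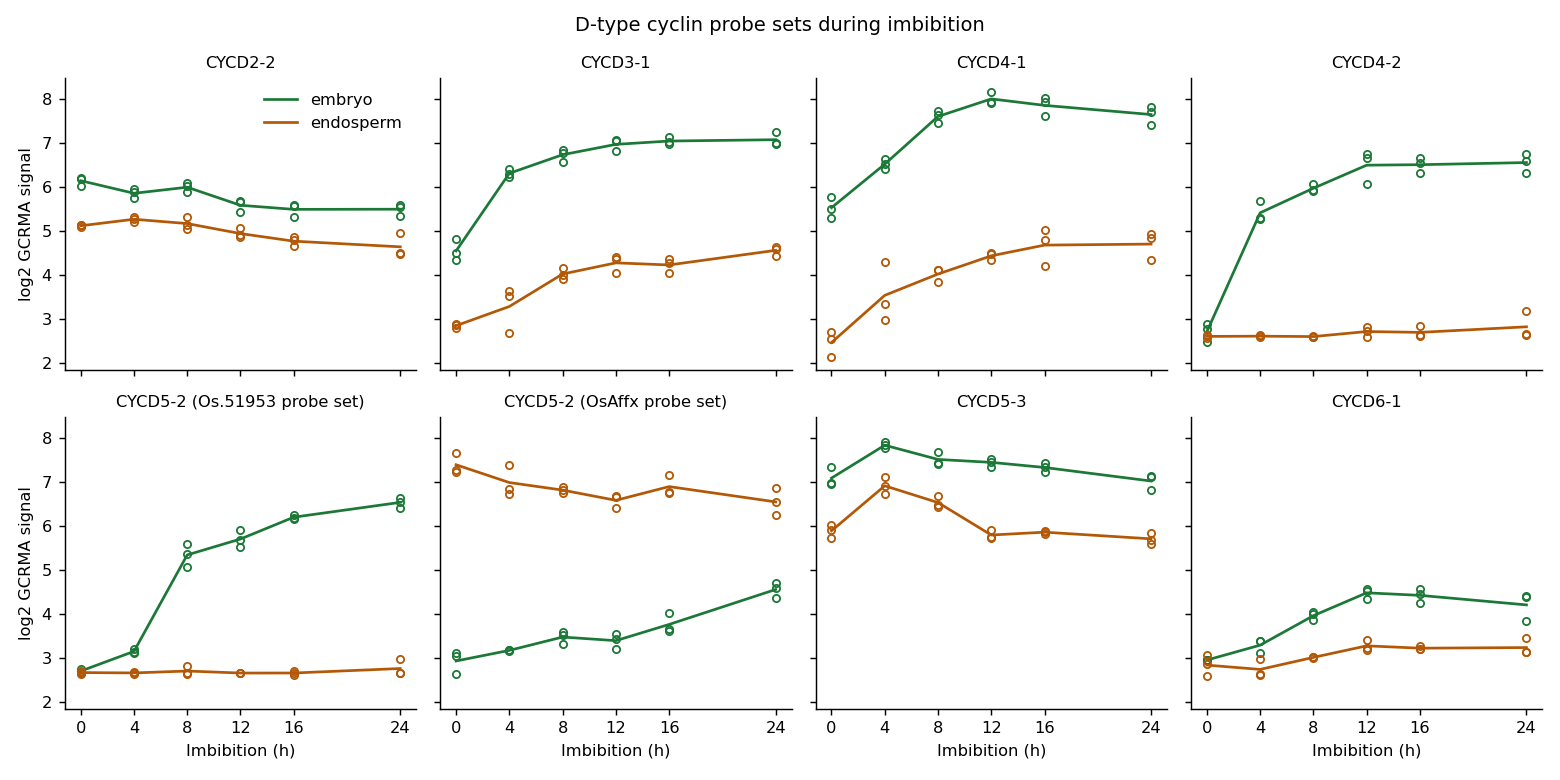
Log2 GCRMA signal (vertical axis) of each D-type cyclin probe set against hours of imbibition. Circles are single arrays and lines join the means of 3 arrays, with embryo in green and endosperm in orange. CYCD4-2 and the Os.51953 probe set of CYCD5-2 leave the floor in embryo alone, CYCD3-1 and CYCD4-1 climb in both tissues, and the OsAffx probe set of CYCD5-2 is brighter in endosperm. The distance between the lines, and their course, depend on the scaling of the arrays. Whether the tissues were normalised together is not stated.

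CYCD3-1 belongs to the group that in Arabidopsis keeps shoot and leaf cells dividing and answers to cytokinin. Its probe set Os.14184.1.S1_at read 4.34, 4.49 and 4.82 in the dry embryo, 6.24, 6.29 and 6.41 at 4 h, 6.58, 6.78 and 6.85 at 8 h, 6.81, 7.05 and 7.07 at 12 h, 6.98, 7.03 and 7.14 at 16 h, and 6.99, 7.0 and 7.25 at 24 h. All arrays from 4 h on lay above all dry embryo arrays, and those of 12, 16 and 24 h overlapped. The change at 24 h was 2.53 ± 0.16 (SE; adjusted p = 4.1e-13), which is 5.79-fold, and 69.8% of it was present at 4 h.

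In endosperm CYCD3-1 followed at lower signal. It read 2.8, 2.86 and 2.88 at 0 h, 2.69, 3.52 and 3.64 at 4 h, 3.91, 4.00 and 4.16 at 8 h, 4.05, 4.37 and 4.40 at 12 h, 4.04, 4.28 and 4.37 at 16 h, and 4.44, 4.60 and 4.64 at 24 h. At 4 h replicate 3 was still at the level of the dry seed, and from 8 h on every array lay above the dry endosperm. The change at 24 h was 1.72 ± 0.16 (adjusted p = 2.6e-09), or 3.28-fold, and it was called from 8 h onward, although the 8 h change of 1.18 was 0.86 and not called with 75th percentile centring. Ordered by mean, the 24 h endosperm came out next to the dry embryo, at 4.56 ± 0.11 and 4.55 ± 0.25 (SD, n = 3), and their arrays overlapped. That order between tissues rests on the deposited scale. Embryo minus endosperm at 0 h was 1.70 on it, and 0.54 with 75th percentile centring.

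CYCD4-1, whose Arabidopsis relatives act in the root tip during germination and in the stomatal lineage, rose in both tissues too. Os.18607.1.S1_at read 5.31, 5.51 and 5.78 in the dry embryo, 6.40, 6.54 and 6.63 at 4 h, 7.45, 7.64 and 7.74 at 8 h, 7.92, 7.94 and 8.17 at 12 h, 7.62, 7.94 and 8.03 at 16 h, and 7.41, 7.72 and 7.84 at 24 h. The 4 h arrays formed a separate step between the dry embryo and the later times, among which the 12 h arrays overlapped those of 16 h and lay above those of 8 and 24 h. The change was 0.99 ± 0.24 at 4 h, just short of the minimum for a call, and 1.11 without replicate 4 of the dry embryo or 1.05 without replicate 5 of the 4 h embryo, which made it a call. It was 2.48 ± 0.24 at 12 h, where the mean was highest, and 2.12 ± 0.24 at 24 h (adjusted p = 1.9e-08).

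In endosperm CYCD4-1 read 2.14, 2.54 and 2.70 at 0 h, all at the floor, then 2.98, 3.34 and 4.29 at 4 h, 3.83, 4.11 and 4.12 at 8 h, 4.33, 4.47 and 4.50 at 12 h, 4.21, 4.81 and 5.03 at 16 h, and 4.34, 4.85 and 4.92 at 24 h. Every imbibed array lay above the dry ones. The 4 h group was the most scattered of all member groups, with an SD of 0.68, because of replicate 2 at 4.29. Its change of 1.07 ± 0.24 (adjusted p = 0.0020) was called, but came to 0.70 without that array and 0.92 without replicate 1 of the dry endosperm, neither of which is a call, and its adjusted p was 0.23 when only the 2 compared groups were fitted. At 24 h the change was 2.24 ± 0.24 (adjusted p = 1.7e-08).

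The difference of the 24 h changes of CYCD4-1, embryo minus endosperm, was -0.12 ± 0.34 (adjusted p = 0.87). Since the dry endosperm was at the floor, the endosperm change may be understated, which was not tested, and this value does not show that the changes were alike. For CYCD3-1 that difference was 0.82 ± 0.23 (adjusted p = 0.0078), larger in embryo as deposited yet short of the minimum for a call, and -0.15 after quantile normalization. In the dry endosperm 1 of the 3 CYCD3-1 arrays was at the floor, so its endosperm change may be understated too. Over the 12 group means these 2 probe sets correlated at r = 0.99, a description over groups that share their arrays.

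From 0 to 24 h in endosperm 3 of the 5 embryo markers changed in the same direction as CYCD3-1 and CYCD4-1. At 24 h against 0 h in endosperm OSH71 rose by 1.82 ± 0.22, OSH6 by 1.25 ± 0.27 and OSH1 by 1.24 ± 0.25, while OSH43 changed by -0.07 and EMP1 fell by 3.40 ± 0.26. The summed signal of the 5 markers, most of it EMP1, was 9.95 to 10.49 at 24 h and 13.46 to 13.49 at 0 h, and OSH71 was at the floor in the dry endosperm. Among the 24 h endosperm arrays replicate 1 had the highest signal of the 3 rising markers (OSH71 5.17, against 3.96 and 4.51 in replicates 2 and 3). The same array held the highest CYCD4-2 value, 3.19, whereas its CYCD3-1 value of 4.44 was the lowest of the 3. CYCD4-1 read 4.85, 4.34 and 4.92 in replicates 1, 2 and 3, lowest in replicate 2, which was also lowest for the 3 markers. Without each endosperm array in turn CYCD3-1 and CYCD4-1 stayed called at 24 h. The part of the markers in these rises was not tested.

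CYCD4-2, a close relative of CYCD4-1 by name, changed in embryo alone in these data. Os.47947.1.A1_at read 2.47, 2.77 and 2.88 in the dry embryo, 5.27, 5.31 and 5.68 at 4 h, 5.91, 5.93 and 6.08 at 8 h, 6.07, 6.67 and 6.76 at 12 h, 6.32, 6.56 and 6.66 at 16 h, and 6.33, 6.60 and 6.76 at 24 h. In the dry embryo 2 of the 3 arrays were at the floor, and all imbibed embryo arrays lay far above them. The change was 2.71 ± 0.16 at 4 h (adjusted p = 2.1e-13) and 3.85 ± 0.16 at 24 h (adjusted p = 4.3e-17), so 70.3% of it was present at 4 h.

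The 18 endosperm arrays of CYCD4-2 stayed between 2.56 and 3.19, and no endosperm group had all 3 arrays above the floor. The endosperm change at 24 h was 0.22 ± 0.16 (adjusted p = 0.26). The test of the difference between the 24 h changes gave 3.63 ± 0.22 (adjusted p = 1.5e-12), larger in embryo.

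CYCD5-2, of a group that in Arabidopsis has been tied to endoreduplication, had 2 probe sets, and they disagreed. Os.51953.1.S1_at read 2.66, 2.69 and 2.76 in the dry embryo, all at the floor, then 3.11, 3.12 and 3.21 at 4 h, 5.08, 5.37 and 5.59 at 8 h, 5.53, 5.68 and 5.91 at 12 h, 6.17, 6.18 and 6.26 at 16 h, and 6.42, 6.55 and 6.65 at 24 h. The big step fell between 4 and 8 h, at 2.20 ± 0.10 (adjusted p = 1.9e-14), and the signal went on climbing, with the arrays of 16 and 24 h each clear of the group before. At 4 h only 11.7% of the 24 h change was present, and at 8 h 68.9%. The change at 24 h was 3.84 ± 0.10 (adjusted p = 1.1e-20).

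In endosperm the Os.51953 probe set stayed between 2.62 and 2.97, with no group clear of the floor, and its 24 h change was 0.09 ± 0.10 (adjusted p = 0.44). The difference of the 24 h changes, embryo minus endosperm, was 3.75 ± 0.14 (adjusted p = 9.8e-17).

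OsAffx.29707.1.S1_at, assigned to the same gene, was weak in embryo and bright in endosperm. It read 2.63, 3.05 and 3.12 in the dry embryo, 3.16, 3.17 and 3.19 at 4 h, 3.31, 3.52 and 3.60 at 8 h, 3.20, 3.43 and 3.55 at 12 h, 3.61, 3.65 and 4.03 at 16 h, and 4.37, 4.59 and 4.71 at 24 h. The 24 h embryo arrays lay above all other embryo arrays, and the change of 1.63 ± 0.17 (adjusted p = 7.7e-09) was called at 24 h and at no earlier time.

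In endosperm the OsAffx probe set read 7.24, 7.29 and 7.67 at 0 h, 6.73, 6.85 and 7.40 at 4 h, 6.75, 6.83 and 6.88 at 8 h, 6.42, 6.66 and 6.69 at 12 h, 6.76, 6.78 and 7.17 at 16 h, and 6.25, 6.54 and 6.87 at 24 h. All endosperm arrays lay above all embryo arrays. The 24 h change in endosperm was -0.85 ± 0.17 (adjusted p = 3.2e-04), short of the minimum for a call, and -1.0 and called without replicate 2 of the 24 h endosperm. The difference of the 24 h changes was 2.47 ± 0.25 (adjusted p = 9.3e-09).

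At 0 h the OsAffx difference, embryo minus endosperm, was -4.47 ± 0.17 and at 24 h -1.99 ± 0.17, and it kept its sign and its call under both other scalings. Over the 12 group means the 2 probe sets of CYCD5-2 correlated at r = -0.59, and the OsAffx probe set correlated negatively with each other member (r = -0.87 to -0.59). Which stretch of the transcript each probe set reads was not analysed here, so the level of CYCD5-2 in endosperm is given per probe set and not for the gene.

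CYCD6-1, whose Arabidopsis namesake drives the division that patterns the root ground tissue, was weak throughout. Os.50582.1.S1_at read 2.95, 2.95 and 2.96 in the dry embryo, 3.10, 3.38 and 3.39 at 4 h, 3.85, 3.99 and 4.04 at 8 h, 4.34, 4.53 and 4.58 at 12 h, 4.25, 4.45 and 4.57 at 16 h, and 3.83, 4.39 and 4.40 at 24 h. The mean was highest at 12 h, and the 12, 16 and 24 h arrays overlapped. The 24 h change was 1.26 ± 0.13 (adjusted p = 6.4e-09). It was 0.87 with each array centred on its 75th percentile and 0.84 after quantile normalization, neither of which is a call. At 8 h the change of 1.01 ± 0.13 fell below 1 without replicate 1 or replicate 4 of that group (0.97, and 1.0 when rounded).

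In endosperm the 18 CYCD6-1 arrays lay between 2.59 and 3.45. Their 24 h change of 0.40 ± 0.13 (adjusted p = 0.021) was short of the minimum for a call. The difference of the 24 h changes was 0.86 ± 0.19 (adjusted p = 7.4e-04), also short of it, 0.23 after quantile normalization, and 1.04 and called without replicate 4 of the 24 h embryo.

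**Figure D2:**
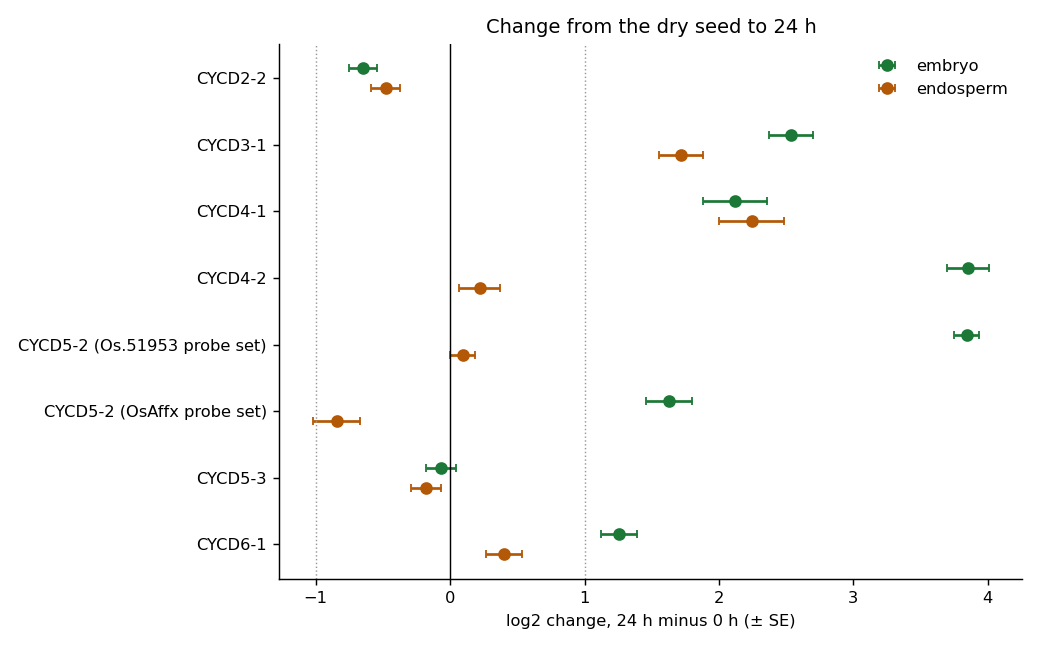
Log2 change from 0 h to 24 h for each probe set, as 24 h minus 0 h with the SE of the limma fit, in embryo (green, upper point) and endosperm (orange, lower point). Dotted lines mark the minimum change for a call. CYCD4-1 stands at 2.12 in embryo and 2.24 in endosperm, where the dry seed was at the floor, while CYCD4-2 stands at 3.85 in embryo and 0.22 in endosperm.

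CYCD5-3 and CYCD2-2 were present in the dry seed and changed little by 24 h. CYCD5-3 (Os.11708.1.S1_at) read 6.95, 6.98 and 7.36 in the dry embryo, 7.78, 7.84 and 7.91 at 4 h, 7.42, 7.44 and 7.70 at 8 h, 7.36, 7.47 and 7.54 at 12 h, 7.23, 7.35 and 7.44 at 16 h, and 6.83, 7.11 and 7.14 at 24 h. The 4 h arrays lay above all others, and those of 24 and 0 h overlapped. The change was 0.75 ± 0.11 at 4 h (adjusted p = 4.3e-06), short of the minimum for a call, and -0.07 ± 0.11 at 24 h (adjusted p = 0.59).

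In endosperm CYCD5-3 was again highest at 4 h. The arrays read 5.74, 5.92 and 6.02 at 0 h, 6.74, 6.91 and 7.12 at 4 h, 6.44, 6.48 and 6.69 at 8 h, 5.72, 5.76 and 5.92 at 12 h, 5.83, 5.86 and 5.90 at 16 h, and 5.60, 5.70 and 5.85 at 24 h. The 4 and 8 h arrays each stood clear of all other times, and those of 0, 12, 16 and 24 h overlapped. The 4 h change of 1.03 ± 0.11 (adjusted p = 1.2e-07) was called. It was 0.95 without replicate 2 of the dry endosperm and 0.93 without replicate 1 of the 4 h endosperm, and 0.83 and 0.84 under the 2 other scalings, none of them a call. The step from 8 to 12 h was -0.74 ± 0.11 (adjusted p = 6.3e-05).

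CYCD2-2 (Os.22837.1.A1_at), of the group that in Arabidopsis responds to sucrose, ended below its dry level in both tissues. In embryo it read 6.03, 6.19 and 6.21 at 0 h, 5.75, 5.88 and 5.95 at 4 h, 5.88, 6.02 and 6.09 at 8 h, 5.43, 5.66 and 5.68 at 12 h, 5.31, 5.58 and 5.59 at 16 h, and 5.35, 5.54 and 5.60 at 24 h. In endosperm it read 5.09, 5.13 and 5.14 at 0 h, 5.21, 5.28 and 5.32 at 4 h, 5.05, 5.14 and 5.32 at 8 h, 4.86, 4.90 and 5.07 at 12 h, 4.66, 4.80 and 4.86 at 16 h, and 4.48, 4.50 and 4.95 at 24 h. The arrays of 24 h lay below those of 0 h in each tissue. The changes were -0.65 ± 0.11 in embryo (adjusted p = 8.4e-06) and -0.48 ± 0.11 in endosperm (adjusted p = 6.8e-04), both short of the minimum for a call. With 75th percentile centring the embryo change of CYCD2-2 was -1.03 and called. The median embryo change over all probe sets was then -0.43, against -0.05 as deposited.

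The F test over the 6 times called 6 of the 8 probe sets in embryo, against 29.0% of all probe sets, leaving out CYCD2-2 and CYCD5-3. In endosperm it called 3 of 8, CYCD3-1, CYCD4-1 and CYCD5-3, against 17.2%. The difference between the 24 h changes was called for 3 of 8, CYCD4-2 and both CYCD5-2 probe sets, all larger in embryo, against 7.69% of all probe sets in that direction.

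At 4 h in embryo 2 of 8 probe sets were called higher, CYCD3-1 and CYCD4-2, against 7.12% of all probe sets. At 8 h 5 were, with CYCD4-1, CYCD6-1 and the Os.51953 probe set of CYCD5-2 added, against 9.57%. The number was 5 again at 12 and 16 h, against 10.6% and 11.3%. Between neighbouring times the step from 4 to 8 h was called for CYCD4-1 (1.09 ± 0.24, and 0.99 and not called with 75th percentile centring) and for CYCD5-2, against 4.05% of all probe sets. No member was called in the steps from 8 to 12 h, 12 to 16 h or 16 to 24 h by limma, in which 3.49%, 0.640% and 2.13% of all probe sets were called either way. At an unadjusted limma p below 0.05 and with no minimum change, a looser rule, these steps held 4, 2 and 3 of the 8 probe sets. The share of all probe sets under that rule was not computed, so these counts cannot be set against the percentages above. In endosperm 2 of 8 were called higher at 4 h (CYCD4-1 and CYCD5-3, against 3.27%) and 2 at 8 h (CYCD3-1 and CYCD4-1, against 5.63%). It was 2 again at 12 and 16 h, against 6.51% and 6.57%.

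Embryo minus endosperm differences were called for 5 of 8 probe sets at 0 h, 4 higher and 1 lower, against 23.2% and 2.37% of all probe sets. At 4 h 3 were called higher and 1 lower (against 23.8% and 1.71%), at 8 h 4 and 1 (23.5% and 2.22%), at 12 h 6 and 1 (23.4% and 2.53%), and at 16 h 6 and 1 (23.3% and 2.89%). At 24 h 5 were called higher and 1 lower, against 22.5% and 2.98%. The lower one was the OsAffx probe set of CYCD5-2 each time. Over all probe sets the split at 24 h was 12885 higher and 1707 lower as deposited, 3800 and 35780 with each array centred on its 75th percentile, and 4566 and 4063 after quantile normalization of all arrays together. In the dry seed CYCD4-1 was 3.07 ± 0.24 higher in embryo (adjusted p = 9.6e-12), a difference that stayed called under both other scalings. CYCD3-1 was 1.70 ± 0.16 higher at 0 h, and 0.54 and not called with 75th percentile centring. CYCD2-2 was 1.03 ± 0.11 higher at 0 h, but -0.14 with 75th percentile centring and -0.27 after quantile normalization. It was 0.99 and no longer called without replicate 4 of the dry embryo. CYCD5-3 was 1.2 ± 0.11 higher at 0 h, but 0.03 with 75th percentile centring and -0.15 after quantile normalization.

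CYCD4-2, CYCD6-1 and the Os.51953 probe set did not separate the tissues at 0 h in the deposited values, where their arrays overlapped, but were called lower in embryo with 75th percentile centring (-1.06, -1.05 and -1.13). By 24 h CYCD4-2 was 3.74 ± 0.16 and the Os.51953 probe set 3.78 ± 0.10 higher in embryo, CYCD3-1 2.52 ± 0.16 and CYCD4-1 2.95 ± 0.24, and these 4 calls were kept under both other scalings. CYCD5-3 was 1.32 ± 0.11 higher in embryo at 24 h, and 0.10 and 0.08 with the 2 other scalings. At 12 h CYCD6-1 was 1.21 ± 0.13 higher, but -0.05 with 75th percentile centring and 0.31 after quantile normalization. The CYCD6-1 difference at 24 h had no stable sign: it was 0.97 ± 0.13 as deposited, short of a call, -0.24 with 75th percentile centring and 0.19 after quantile normalization, and it was called without replicate 4 of the 24 h embryo (1.16) or replicate 3 of the 24 h endosperm (1.08). The CYCD2-2 difference at 24 h, 0.86 ± 0.11 as deposited, was -0.36 and -0.37 under these 2 scalings, and 1.01 and called without replicate 2 of the 24 h endosperm. This difference was negative at all 6 times under both other scalings.

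**Figure D3:**
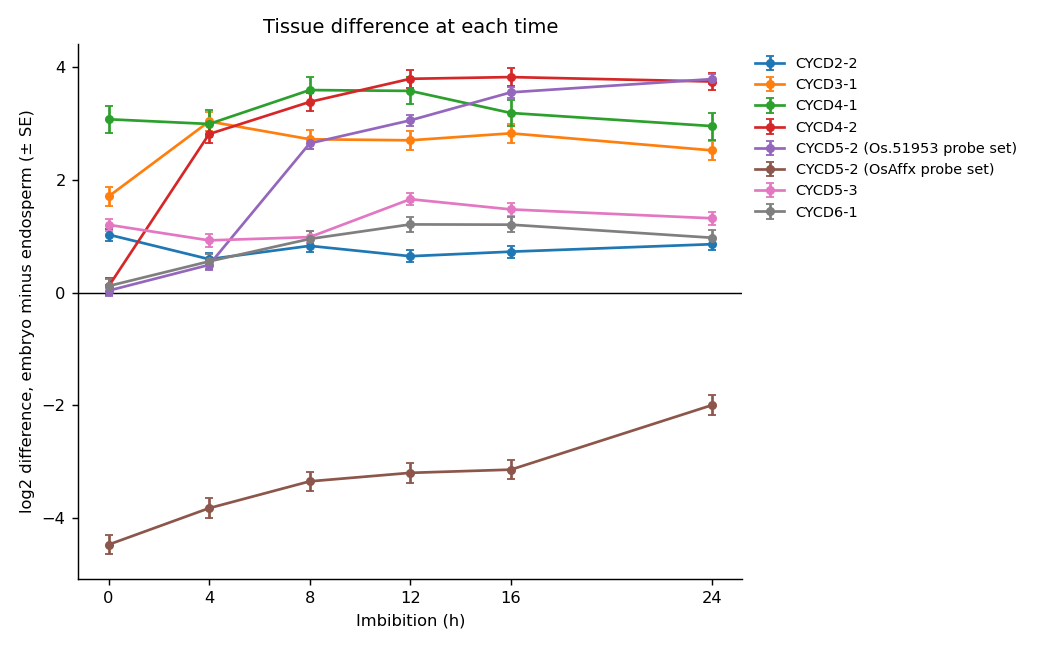
Log2 difference, embryo minus endosperm, with the SE of the limma fit, at each hour of imbibition, 1 line per probe set. The OsAffx probe set of CYCD5-2 is below 0 at all 6 times, and CYCD4-2 goes to 2.81 at 4 h. Several plotted directions turn under another scaling: CYCD2-2 at all 6 times, CYCD5-3 at 0, 4 and 8 h, CYCD6-1 at all 6 times, CYCD4-2 at 0 h and the Os.51953 probe set at 0 and 4 h. Those of CYCD3-1, CYCD4-1 and the OsAffx probe set keep their sign at all 6 times under both other scalings.

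Harvest days could be compared for part of these results. Endosperm arrays of 24 h and 0 h shared 2 harvest days, within which CYCD3-1 changed by 1.56 and 1.80 and CYCD4-1 by 2.15 and 1.79. Tissues shared 1 harvest day at 24 h, with differences of 3.41 for CYCD4-2 and 3.46 for the Os.51953 probe set, and 1 at 0 h, with -4.62 for the OsAffx probe set. Embryo arrays of 24 h and 0 h shared no harvest day, but arrays of other times link their days. With harvest day as a block in the fit the same number, 6 of 8, was called in embryo at 24 h, with changes of 2.58 for CYCD3-1, 2.12 for CYCD4-1, 3.81 for CYCD4-2 and 3.94 for the Os.51953 probe set. Each within-day value rests on 1 array a group.

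The genes whose 12 group means most resembled a member were taken among 1889 probe sets that had a symbol and an F test call in either tissue (1888 for CYCD5-2). For CYCD3-1 they were GSK2, a kinase of brassinosteroid signalling, at r = 0.994 and AtMAP70-3 at 0.991. For CYCD4-1 they were UGD5 and the Aux/IAA gene IAA30, both at 0.990. For CYCD4-2 they were MAKIBA3 at 0.994 and EXLA3, an expansin-like gene, at 0.992. For CYCD6-1 they were GLU13 at 0.986 and CRSH1 at 0.984, and for the OsAffx probe set of CYCD5-2, the brighter of its 2, SPX3, of phosphate signalling, at 0.975 and TGAL7 at 0.968. These are correlations over 12 groups that share the contrast between tissues.

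The rest of the pathway was read from lists in which each gene stands for its brightest probe set. Their counts are to be read against the 12.0% of all probe sets called higher in embryo at 24 h and the 7.33% in endosperm. The shares called lower were 10.1% and 4.57%. At 4, 8, 12 and 16 h in embryo the share called higher was 7.12%, 9.57%, 10.6% and 11.3%. List medians of the 24 h change in embryo were 4.12 for A- and B-type CDKs, 5.28 for A- and B-type cyclins, 1.74 for S-phase genes, 1.02 for CDK inhibitors and -0.08 for other cyclins. The 2 other D-type cyclins with a probe set rose in embryo. CYCD3-2 read 7.25, 7.32 and 7.33 in embryo at 24 h, against 3.05, 3.54 and 3.58 at 0 h. That is a change of 3.91 ± 0.25, called from 8 h on, against 1.14 ± 0.25 in endosperm. CYCD5-1 read 3.63, 3.89 and 3.90 in embryo at 24 h and was at the floor at 0 h, a change of 1.27 ± 0.16 called at 24 h alone, and all its endosperm arrays of 24 and 0 h were at the floor.

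Read from their brightest probe sets, all 3 CDK genes of the A and B type that had one were called higher at 24 h in both tissues. CDKA-2, of the type that partners D-type cyclins, rose by 4.12 ± 0.18 in embryo, where it was called from 4 h on, and by 1.43 ± 0.18 in endosperm, where 1 of its 3 probe sets was called. CDKA-1 rose by 1.74 ± 0.10 in embryo and 1.36 ± 0.10 in endosperm, with 1 of its 2 probe sets called in each. CDKB2-1, a mitotic kinase, rose by 6.34 ± 0.48 in embryo from 12 h on and by 1.56 ± 0.48 in endosperm. Of 8 CDKs of other types 1 was called higher and 3 lower in embryo (CDKF-4 1.49, CDKG-2 -1.27, CDKF-3 -1.21 and CDKC-1 -1.02), with a list median of -0.84.

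Of 6 CDK inhibitors and related genes 3 were called higher and 1 lower in embryo at 24 h. KRP6 rose by 3.95 ± 0.26, KRP1 by 1.85 ± 0.13 and EL2, an inhibitor of the SIM type, by 1.47 ± 0.30, while SMR1 fell by 3.05 ± 0.22. SMR1 read 7.61, 7.81 and 7.97 in embryo at 24 h, against 10.79, 10.81 and 10.95 at 0 h. It read 5.72, 6.21 and 6.47 in endosperm at 24 h, against 8.51, 8.72 and 8.78 at 0 h, a fall by 2.54 ± 0.22. Inhibitors moved in both directions, and 1 of the 2 probe sets of KRP6 was not called in either tissue.

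The retinoblastoma-related genes, which code for the substrate of these kinases, were named after their values were seen. The 2 genes had 3 probe sets in all, and only the brightest of each gene was read here. By these, neither gene was called at 24 h in either tissue. RBR1 was called lower in embryo at 4 h (-1.53 ± 0.20, adjusted p = 7.0e-07) and changed by 1.29 ± 0.20 in the step to 8 h. In endosperm RBR1 was called higher at 8 h (1.34 ± 0.20). RBR2 changed by -0.25 to 0.01 in embryo over the 5 imbibed times, with no call. E2F and DP factors on the list matched no probe set by symbol and were not analysed here.

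Of 17 S-phase genes, 0, 8, 10, 11 and 11 were called higher in embryo at 4, 8, 12, 16 and 24 h. At each of these times 2 were called lower, against 4.24%, 7.10%, 8.32%, 9.08% and 10.1% of all probe sets. The helicase subunit genes MCM2, MCM3 and MCM4 rose by 5.77 ± 0.33, 5.47 ± 0.24 and 5.44 ± 0.24 at 24 h, each called from 8 h on, while FEN1B fell by 1.54 ± 0.11 (1 of its 2 probe sets) and RPA1C by 1.51 ± 0.14. In endosperm 5 were called higher and 1 lower at 24 h, with MCM2 at 2.16 ± 0.33. Of 7 cyclins of the A and B type, which drive S phase and mitosis, 0, 1, 5, 5 and 5 were called higher in embryo at those 5 times. CYCB1-1, CYCB2-2 and CYCB2-1 rose by 7.15 ± 0.51, 6.62 ± 0.54 and 5.82 ± 0.42, each called from 12 h on. In endosperm CYCB1-1 (1.49 ± 0.51) and CYCB2-2 (1.65 ± 0.54, 1 of its 2 probe sets) were the 2 called. Their 24 h endosperm arrays were spread widely, at 2.96 to 4.82 for CYCB1-1.

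D-type cyclin genes, counted the same way by brightest probe set, were called higher in embryo in 2, 4, 4, 4 and 5 of 7 cases at 4, 8, 12, 16 and 24 h. For CYCD5-2 this count takes the OsAffx probe set, called at 24 h alone, whereas its Os.51953 probe set was called from 8 h on. At 4 h in embryo 7.12% of all probe sets were called higher. At that time 2 D-type cyclins and CDKA-2 were called, and no S-phase gene and no A- or B-type cyclin was. In lists this short a lack of calls is close to that share, so these counts set no order among the lists. No test compared these lists with each other. Of 7 other cyclins 3 were called higher and 2 lower in embryo at 24 h. CYCP4-1 rose by 5.52 ± 0.28, CYCP3-1 by 3.31 ± 0.16 and CYCP2-1 by 3.16 ± 0.48, and CYCH1-1 and CYCT1-1, partners of transcriptional kinases, fell by 1.51 ± 0.11 and 1.26 ± 0.09. CYCP3-1 was called from 4 h on in both tissues, with 1.89 ± 0.16 at 24 h in endosperm.

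**Figure D4:**
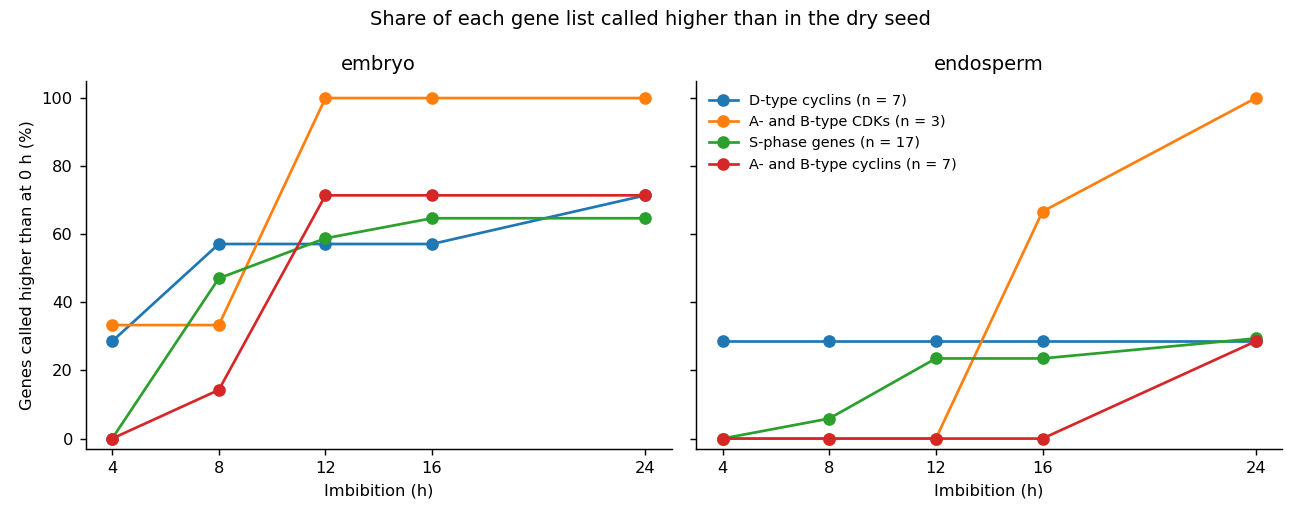
Percent of the genes of each list (vertical axis) called higher than in the dry seed at each hour of imbibition, in embryo (left) and endosperm (right), with each gene read from its brightest probe set. For CYCD5-2 that is the OsAffx probe set. In embryo 2 of 7 D-type cyclins are called at 4 h, when no S-phase gene and no A- or B-type cyclin is. Of all probe sets 7.12% are called at that time. By 12 h 10 of 17 S-phase genes and 5 of 7 A- and B-type cyclins are called, against 10.6% of all probe sets. In endosperm 2 of 7 D-type cyclins are called at every time, and the A- and B-type cyclins enter at 24 h.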

How the data were processed

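The authors deposited 1 table of log2 signals per probe set for 36 Affymetrix rice arrays, made with GCRMA per the submitters' processing notes. The sources used here give no GCRMA version. Per the labels' protocols total RNA was amplified and labelled with biotin. Values were used as deposited. The 123 control and 64 reporter probe sets were left out. Names came from the array annotation and from a RefSeq gene table (ASM3414082v1), whose coordinates were not used: 22436 had 1 gene, 95 several and 34663 none.

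One mean for each of the 12 groups of tissue and time was fitted in R 4.3.3 by limma 3.58.1, with empirical Bayes moderation, tested on simulated data. Standard errors and adjusted p-values are from that fit. For F tests, a call needed a range of group means of at least 1. The 3 arrays per group limit precision. Named pathway genes were up to 3 per direction and list with the largest called embryo change, and the largest called endosperm change, plus the 2 best-correlated named probe sets of each member called in embryo. The members, lists and tests were chosen with earlier results of these data known. The fit did not pair arrays by replicate number. Deviations of same-numbered arrays at 0 and 24 h correlated at -0.05 to 0.05, which cannot show whether those arrays came from 1 run. Alternatives were other scalings, blocks, filters and leaving out each array. Python 3.11.15 with numpy 2.4.6, pandas 2.3.3 and matplotlib 3.10.9 served for tabulation and plots.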

Additional observations from a re-analysis of the deposited data

Results flagged for a closer look

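The 24 h change differed between embryo and endosperm, by a test of the difference itself, for 3 probe sets. For CYCD4-2 the difference was 3.63 ± 0.22 (SE; limma adjusted p = 1.5e-12), with all 3 embryo arrays of 24 h above those of 0 h and the endosperm arrays of the 2 times overlapping. For the Os.51953 probe set of CYCD5-2 it was 3.75 ± 0.14 (adjusted p = 9.8e-17), again with overlapping endosperm arrays. For the OsAffx probe set of CYCD5-2 it was 2.47 ± 0.25 (adjusted p = 9.3e-09), with the embryo arrays higher at 24 h and the endosperm arrays lower, at 6.25 to 6.87 at 24 h against 7.24 to 7.67 at 0 h. The 3 calls were kept under every alternative run.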

How the results depend on the processing

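Over 216 pairs of probe set and comparison, the call was unchanged in 216 with a replicate block, 216 with trend and robust fitting, 216 with the filter on dim probe sets, 215 with the compared groups alone, 212 with a harvest day block, 206 after quantile normalization and 193 with 75th percentile centring. Without a minimum fold, 5 probe sets were called for endosperm at 24 h, 5 for the difference of changes and 6 for the endosperm F test, since the threshold is lower by construction. After quantile normalization 3 were called between tissues at 0 h. Leaving out each array in turn gave 6 to 6 calls for embryo at 24 h, 2 to 3 for endosperm, 4 to 5 between tissues at 0 h, 6 to 7 at 24 h, 3 to 4 for the difference of changes, 6 to 6 for the embryo F test and 3 to 4 for the endosperm F test. Of 81 called pairs 4 lost their call without 1 array, and 9 uncalled pairs gained one. Signs turned for embryo minus endosperm at 0 h: with 75th percentile centring CYCD2-2 was -0.14, CYCD4-2 -1.06, the Os.51953 probe set -1.13 and CYCD6-1 -1.05, and after quantile normalization CYCD2-2 was -0.27 and CYCD5-3 -0.15. At 24 h CYCD2-2 was -0.36 and -0.37 under these scalings and CYCD6-1 -0.24 under the first. The difference of changes of CYCD3-1 was -0.15 after quantile normalization. With 75th percentile centring the median embryo minus endosperm difference over all probe sets was -1.10 at 0 h and -1.19 at 24 h. As deposited it was 0.07 and 0.02. For endosperm at 24 h against 0 h that median was -0.37 with this centring and -0.03 as deposited. The cause of the turned signs was not tested beyond these medians. Signals at the floor limit what can be seen of CYCD4-2, CYCD6-1 and the Os.51953 probe set. In the dry endosperm they also limit CYCD3-1 and CYCD4-1.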
